A study of Homo sapiens with 13 samples.

Results

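The 45 RPL genes encode the proteins of the large (60S) subunit of the cytosolic ribosome. They were taken by symbol, RPL3 to RPL41 and RPLP0 to RPLP2, without pseudogenes, tissue-specific paralogs or mitochondrial ribosomal proteins, and are 45 of 19974 protein-coding genes on chromosomes 1 to 22 and X. A peak was counted at a gene when it overlapped the annotated gene span or the 2 kb on either side. The spans run from 1335 bp in RPL41 to 17436 bp in RPL31, with a median of 5057 bp, against a median of 24170.5 bp for all protein-coding genes. The genes lie on 18 chromosomes, and their spans hold 40 snoRNA genes in 19 of the 45.

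Large-subunit proteins bind the ribosomal RNA, line the tunnel through which the new peptide leaves, surround the peptidyl transferase centre and carry the stalk that recruits the translation factors. Their genes are short and are among the most actively transcribed by RNA polymerase II in growing cells, and most of their mRNAs start with a 5′ terminal oligopyrimidine (TOP) tract through which mTOR signalling controls their translation. R-loops, in which a nascent RNA pairs with its DNA template and displaces the other strand, are known to form near the starts and ends of active genes. RNaseH1 degrades the RNA strand of such hybrids, and REXO4 belongs to the REXO family of predicted exonucleases.

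Hybrids were mapped by DRIP-seq in U2OS, a human osteosarcoma cell line, through IP of sonicated DNA with S9.6, an antibody against DNA-RNA hybrids. Cells had been transfected with an siRNA against REXO4 (siREXO4), an siRNA against RNaseH1 (siRNaseH1) or a control siRNA (siCtrl), and the aim was to ask whether both enzymes act on R-loops in the same genomic regions. The 13 libraries are 3 IP and 1 input for each transfection, plus 1 made with IgG from siCtrl cells. The authors merged the 3 IP libraries of each transfection and called 1 peak list from them, so no value has a replicate error and no test between transfections could be made. Sequences of the siRNAs and the time between transfection and harvest were not given in the sources used here.

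On chromosomes 1 to 22 and X the siREXO4 list held 12687 peaks, the siRNaseH1 list 20954 and the siCtrl list 4458. A list of more peaks gives any gene more chances to hold one, so the main counts at the RPL genes stand beside the same counts over protein-coding genes. A peak also has to reach a threshold, and the lowest fragment number at a summit was 7 in each list, so a gene without a peak is one at which none was detectable at this depth. The lowest expected background at any peak of a list, recovered from the fold and p-value, was 1.41 fragments in siREXO4, 1.36 in siRNaseH1 and 1.28 in siCtrl. REXO4 held 0 peaks in each of the 3 lists, and RNASEH1 held 1 siREXO4, 3 siRNaseH1 and 0 siCtrl peaks. Peaks do not measure transcripts, so neither the knockdowns nor the labelled cell type could be checked with marker genes. A change in hybrids and a change in transcription of a gene cannot be told apart here.

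The starts of 5 genes are printed, because RPL41, RPL4, RPL38, RPL19 and RPL26 had a peak over the promoter window in each of the 3 lists. The RefSeq promoter table (GRCh38.p14, whose coordinates are those of hg38) holds 250 bases before and 50 after an annotated start, and 38 of the 45 genes were matched to it. RPL5, RPL7, RPL8, RPL23, RPL23A, RPL30 and RPL37 were not. Of the 38, 19 had a siREXO4 peak over the window (50.0%), 21 a siRNaseH1 peak (55.3%) and 5 a siCtrl peak (13.2%). Over all 15812 protein-coding genes with such a window the shares were 17.1%, 17.6% and 1.95%. The 5 printed starts are thus not those of a typical RPL gene. The lines give 100 bases before the start and 30 from the start on, 5′ to 3′ in the direction of transcription. Capitals mark the TOP run, the unbroken stretch of C and T that opens the transcript with a C, where it has at least 4 further C or T.
RPL41 (chr12:56116533-56116662, plus strand): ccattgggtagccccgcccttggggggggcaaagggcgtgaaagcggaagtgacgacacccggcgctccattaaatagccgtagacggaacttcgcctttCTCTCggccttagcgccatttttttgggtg
RPL4 (chr15:66504826-66504955, minus strand): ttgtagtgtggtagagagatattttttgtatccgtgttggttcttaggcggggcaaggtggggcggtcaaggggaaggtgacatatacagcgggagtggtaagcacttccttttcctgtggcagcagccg
RPL38 (chr17:74203578-74203707, plus strand): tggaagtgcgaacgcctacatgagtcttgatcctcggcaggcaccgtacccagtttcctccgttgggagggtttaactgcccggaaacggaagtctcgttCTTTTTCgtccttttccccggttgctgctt
RPL19 (chr17:39200183-39200312, plus strand): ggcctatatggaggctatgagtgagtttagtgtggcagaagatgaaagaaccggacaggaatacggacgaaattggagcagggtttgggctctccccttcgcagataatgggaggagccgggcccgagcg
RPL26 (chr17:8383164-8383293, minus strand): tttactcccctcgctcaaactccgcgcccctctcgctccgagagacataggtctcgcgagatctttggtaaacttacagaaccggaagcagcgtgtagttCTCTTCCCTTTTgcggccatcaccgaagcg

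The run was 5 bases long in RPL41, 7 in RPL38 and 12 in RPL26, and the windows of RPL4 and RPL19 had none at the annotated start. A TOP run opened at least 1 annotated start of 28 of the 38 RPL genes (73.7%), against 6.24% of 15812 protein-coding genes in the table. On either strand of the promoter window, GGGCGG, the core of the GC box, was present in 21 of 38 RPL genes (55.3%, against 64.2% of all), CCGGAAG, an ETS-type element, in 13 (34.2%, against 16.5%), AAGATGG, a YY1-type element, in 5 (13.2%, against 7.9%), and TATAAA in 3 (7.89%, against 12.4%). Of 22 RPL genes with a peak over the first 500 bases in any list, 17 had a TOP run, against 11 of the 16 without such a peak.

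The first comparison asked at how many RPL genes hybrids were detected after each transfection. Peaks were found at 35 of the 45 genes in siREXO4 (77.8%), at 44 in siRNaseH1 (97.8%) and at 21 in siCtrl (46.7%). Over all protein-coding genes the shares were 33.7% in siREXO4, 39.2% in siRNaseH1 and 12.0% in siCtrl. Over the 8306 protein-coding genes no longer than RPL31 they were 25.5%, 28.3% and 7.09% in the same order of lists. Every one of the 45 RPL genes held a peak in at least 1 list, but the only peaks of RPL7, RPL7A and RPL35 also overlapped the neighbours RDH10, MED22 and WDR38. Further genes likewise had no peak clear of another protein-coding gene. All peaks of RPL15, RPL24 and RPL35A also overlapped NKIRAS1, LOC124906262 and DRC9, and those of RPL17 and RPL36A overlapped RPL17-C18orf32 and RPL36A-HNRNPH2. With peaks over a protein-coding gene outside the family left out, 27 RPL genes had one in siREXO4, 34 in siRNaseH1 and 20 in siCtrl. The shares over all protein-coding genes were not recounted in this way.

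**Figure D1:**
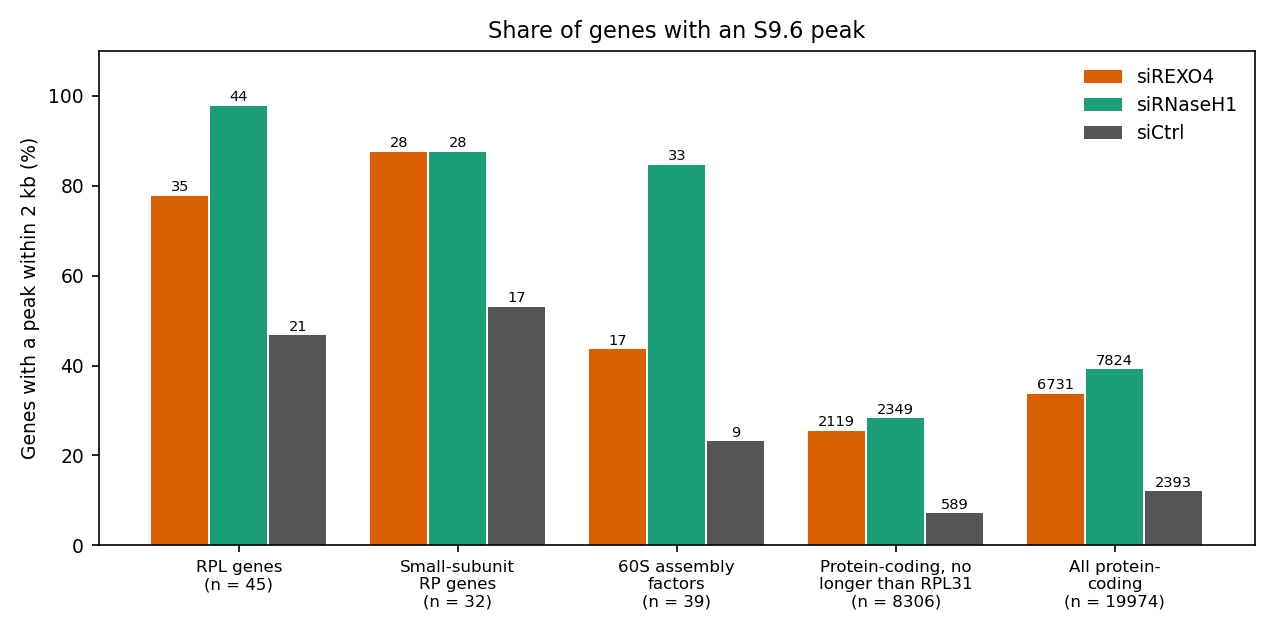
Share of genes (%, vertical axis) with at least 1 peak in the span or within 2 kb, for RPL genes and 4 other gene sets, with 1 bar per peak list and the number of genes above each bar. RPL genes stand at 77.8% in siREXO4, 97.8% in siRNaseH1 and 46.7% in siCtrl, and all protein-coding genes at 33.7%, 39.2% and 12.0%.

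The number of peaks was highest in siRNaseH1, then siREXO4, then siCtrl. RPL genes held 60 siREXO4, 130 siRNaseH1 and 31 siCtrl peaks, which covered 36449, 91424 and 13901 bp. Per 100 kb of span and flank this was 13.1, 28.4 and 6.78 peaks, against 3.27, 4.79 and 0.752 over protein-coding genes no longer than RPL31. The peaks were wide, with a median of 546 bp in siREXO4, 580 bp in siRNaseH1 and 372 bp in siCtrl, against 399, 398 and 339 bp at all protein-coding genes. At least 2 peaks were held by 16 RPL genes in siREXO4 (35.6%), 34 in siRNaseH1 (75.6%) and 9 in siCtrl (20.0%), against 7.78%, 13.3% and 1.16% of protein-coding genes no longer than RPL31. At least 3 were held by 8 RPL genes in siREXO4 (17.8%), 23 in siRNaseH1 (51.1%) and 1 in siCtrl (2.22%), against 2.66%, 6.65% and 0.289%. At 33 RPL genes the siRNaseH1 list had more peaks than the siREXO4 list, at 10 as many and at 2, RPL10 and RPL13, fewer. Some of these peaks may belong to a neighbour, since 12 siREXO4, 37 siRNaseH1 and 4 siCtrl peaks also overlapped the span of another protein-coding gene.

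Because the lists differ in length, they were also cut to their 4458 peaks of lowest p-value. The siREXO4 list then gave 36 peaks at 28 RPL genes and the siRNaseH1 list 67 peaks at 38 RPL genes, against the 31 siCtrl peaks at 21 genes. Over all protein-coding genes the shares with a peak were then 18.6% in siREXO4, 16.9% in siRNaseH1 and 12.0% in siCtrl.

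Fold enrichment, the height at the summit over the local background, is the authors' value and was read within its own list. Where folds of several lists stand side by side, their sizes are not to be compared between lists. The RPL peaks lay high in each list, with a median percentile of 70.7 in siREXO4, 80.9 in siRNaseH1 and 65.1 in siCtrl. The top 10% of the list by fold held 11 of the 60 siREXO4 peaks (18.3%), 38 of the 130 siRNaseH1 peaks (29.2%) and 5 of the 31 siCtrl peaks (16.1%). Of the peaks at all protein-coding genes, 11.8%, 10.8% and 11.2% lay there. The median number of fragments at an RPL summit was 18 in siREXO4 (range 10 to 82), 23 in siRNaseH1 (9 to 167) and 16 in siCtrl (8 to 38).

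**Figure D2:**
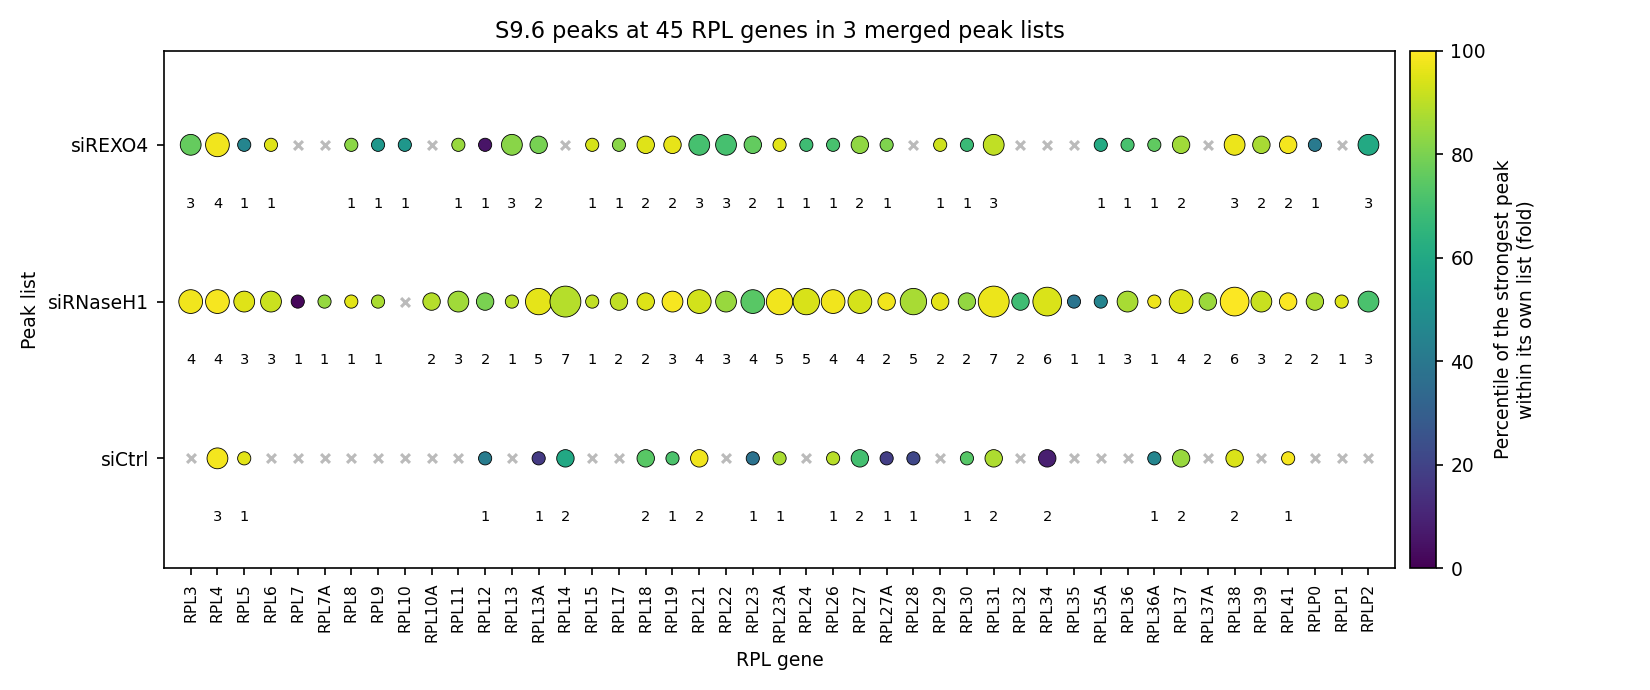
Peaks at each of the 45 RPL genes (horizontal axis) in the 3 merged lists (rows). Circle size and the number below give the peaks per gene, colour the percentile of the strongest peak within its own list, and a cross a gene with none. RPL31 has 3, 7 and 2 peaks in siREXO4, siRNaseH1 and siCtrl, and the crosses number 10, 1 and 24.

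The genes fell into 5 patterns. In 18 genes a peak was present in each of the 3 lists: RPL4, RPL5, RPL12, RPL13A, RPL18, RPL19, RPL21, RPL23, RPL23A, RPL26, RPL27, RPL27A, RPL30, RPL31, RPL36A, RPL37, RPL38 and RPL41. In 16 it was present in both knockdown lists and not in siCtrl: RPL3, RPL6, RPL8, RPL9, RPL11, RPL13, RPL15, RPL17, RPL22, RPL24, RPL29, RPL35A, RPL36, RPL39, RPLP0 and RPLP2. In 7 it was present in siRNaseH1 alone, namely RPL7, RPL7A, RPL10A, RPL32, RPL35, RPL37A and RPLP1, and RPL10 had its 1 peak in siREXO4 alone. RPL14, RPL28 and RPL34 had siRNaseH1 and siCtrl peaks and no siREXO4 peak. No RPL gene had a siCtrl peak and none in either knockdown list. A peak in each of the 3 lists was found at 40.0% of the RPL genes, against 8.59% of all protein-coding genes, and one in both knockdown lists and not in siCtrl at 35.6%, against 19.0%. One in siRNaseH1 alone was found at 15.6% of the RPL genes, against 10.3% of all protein-coding genes, and one in siREXO4 alone at 2.22%, against 5.48%.

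RPL41, which encodes a very short basic peptide of the subunit, held the strongest RPL peak of each list. It ran from 56116361 to 56117442 on chromosome 12 in siREXO4 (fold 21.7, 82 fragments), from 56116234 to 56117483 in siRNaseH1 (fold 41.9, 154 fragments) and from 56116309 to 56117372 in siCtrl (fold 11.5, 32 fragments). These peaks stood at percentiles 98.2, 99.5 and 98.5 of their lists, and each spans the printed start and most of the 1335 bp gene. A second RPL41 peak, over the gene end and the neighbour ZC3H10, was present in siREXO4 (fold 14.7) and siRNaseH1 (fold 9.61) and not in siCtrl.

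RPL4 lines the exit tunnel. Its peak over the printed start had a fold of 20.1 in siREXO4, 23.8 in siRNaseH1 and 10.9 in siCtrl, at percentiles 97.8, 98.5 and 98.3. A second region inside the gene carried a siREXO4 peak of fold 7.18 (66499610 to 66500059 on chromosome 15), a siRNaseH1 peak of fold 17.5 (66499338 to 66500856) and a siCtrl peak of fold 4.85 (66499553 to 66500073). RPL4 thus held hybrids at its start and in its body in each of the 3 lists. A further siCtrl peak of fold 6.06, over the neighbour SNAPC5, was overlapped by a siRNaseH1 peak of fold 8.93 and by no siREXO4 peak.

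RPL38 is needed in the mouse for the translation of a subset of Hox mRNAs. Its start peak on chromosome 17 had a fold of 17.5 in siREXO4 (74203524 to 74204350), 36.0 in siRNaseH1 (74203396 to 74204464) and 7.38 in siCtrl (74203616 to 74204047). Downstream, siREXO4 had 2 weak peaks (fold 3.16 and 3.54) and siCtrl 1 (fold 4.32), whereas siRNaseH1 had 5, of fold 7.68, 5.47, 14.3, 14.5 and 6.73. The siRNaseH1 peaks follow each other along most of the gene, and the siREXO4 and siCtrl peaks left its middle without a call.

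RPL19, at the interface between the subunits, had a start peak of fold 16.3 in siREXO4, 24.3 in siRNaseH1 and 5.35 in siCtrl. RPL23A, which lies at the tunnel exit and docks the signal recognition particle, had its strongest peak at the gene's low-coordinate boundary, from 28719888 to 28720665 on chromosome 17 in siREXO4, with folds of 14.4 in siREXO4, 19.1 in siRNaseH1 and 6.22 in siCtrl. RPL26, also at the tunnel exit, had a start peak of fold 5.85 in siREXO4, 19.0 in siRNaseH1 and 6.52 in siCtrl. In each of these 3 genes siRNaseH1 added peaks over the rest of the gene or its flank, 2 in RPL19, 4 in RPL23A and 3 in RPL26, where siCtrl had none. The siREXO4 list added 1, in RPL19, of fold 3.59.

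RPL18 had a start peak of fold 14.1 in siREXO4, 12.6 in siRNaseH1 and 5.54 in siCtrl, and a peak at or past its end, over FAM83E, of fold 6.87, 10.9 and 5.28. With 7594 bp of peaks over the 3 lists it had the most covered bases of the family, and its siREXO4 start peak was the widest siREXO4 peak of the family, at 1705 bp. The siREXO4 and siRNaseH1 start peaks also overlapped the neighbour SPHK2. RPL31, at the tunnel exit and the longest of the genes, had the most peaks, 12 over the 3 lists. Its start peak had a fold of 9.78 in siREXO4, 16.3 in siRNaseH1 and 6.29 in siCtrl. Several peaks in the rest of its span also overlapped TBC1D8. RPL4 and RPL38 followed with 11 peaks each.

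**Figure D3:**
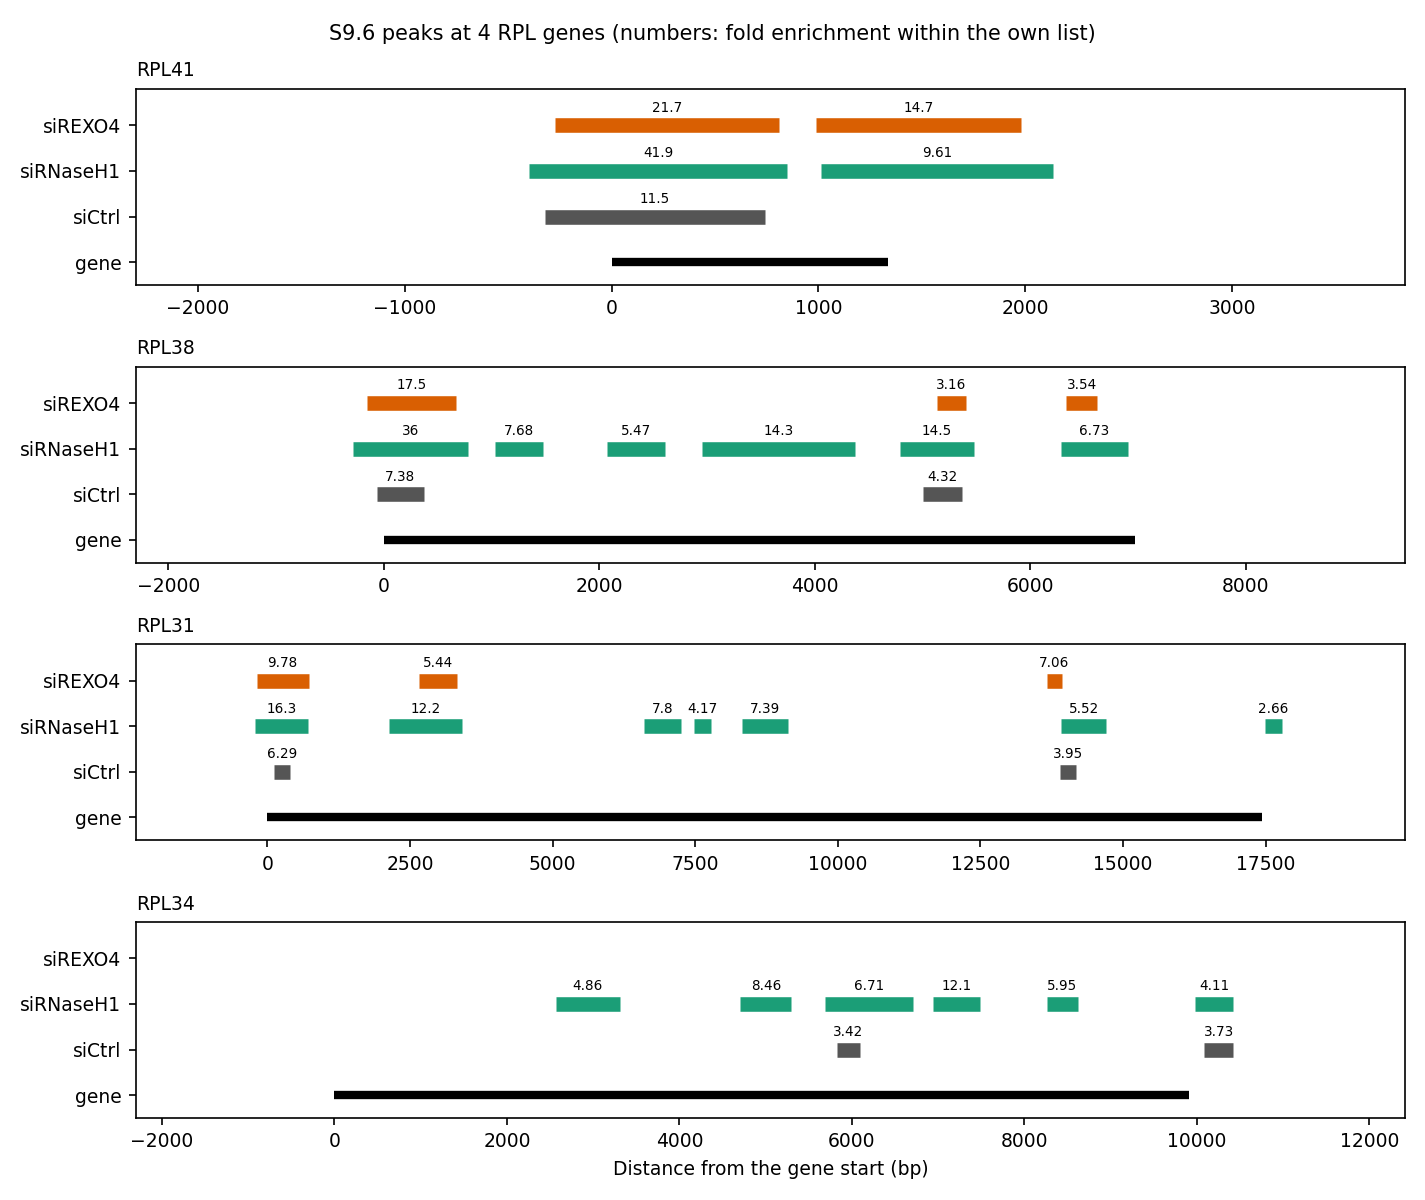
Peaks (bars) of the 3 lists along RPL41, RPL38, RPL31 and RPL34, against distance from the gene start in bp, with the gene span in black and the fold within the own list above each bar. RPL41, RPL38 and RPL31 carry a start peak in each list, and RPL34 has 6 siRNaseH1 and 2 siCtrl peaks, none at its start.

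Other genes with peaks in each list had them away from the start. RPL27A had a peak in its last part, from 8687555 to 8688297 on chromosome 11 in siREXO4 (fold 6.88), from 8687330 to 8688583 in siRNaseH1 (fold 20.3) and from 8687700 to 8688236 in siCtrl (fold 4.09). RPL21 had its strongest siCtrl peak near the gene end (fold 9.67, percentile 97.8), which overlapped a siREXO4 peak of fold 3.05 (percentile 1.74) and a siRNaseH1 peak of fold 9.9 (percentile 91.1). RPL27 had body peaks of fold 7.38 at most in siREXO4, 11.6 in siRNaseH1 and 5.28 in siCtrl. In RPL21 the siREXO4 peak stood far lower in its own list than the siCtrl peak did in its own.

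RPL12, at the base of the stalk, had body peaks of fold 3.42 in siREXO4, 7.16 in siRNaseH1 and 4.66 in siCtrl. RPL13A had a peak past its end in each list, of fold 6.71 in siREXO4, 5.64 in siRNaseH1 and 4.04 in siCtrl, and start peaks in siREXO4 (fold 5.98) and siRNaseH1 (fold 14.2). RPL36A had 1 peak in each list, at its start, of fold 6.23 in siREXO4, 18.2 in siRNaseH1 and 4.77 in siCtrl. The RPL36A peaks also lie in RPL36A-HNRNPH2, a read-through gene, and those of the knockdown lists reach BTK.

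The remaining 4 of the 18 are RPL5, RPL37, RPL23 and RPL30. RPL5 had 1 siREXO4 peak (fold 4.78) and 1 siCtrl peak (fold 7.76, percentile 95.6) at its low-coordinate boundary, and 3 siRNaseH1 peaks of fold 13.3, 12.3 and 10.2. RPL37 had its strongest peaks inside the gene, of fold 7.98 in siREXO4, 13.0 in siRNaseH1 and 6.06 in siCtrl. RPL23 had its strongest peaks in the flank, outside the span, of fold 6.34 in siREXO4, 6.5 in siRNaseH1 and 4.52 in siCtrl. RPL30 had peaks inside the gene of at most 5.71, 7.72 and 5.52 in the same order, and its siREXO4 peak overlapped no siCtrl peak.

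Among genes with a peak in both knockdowns and none in siCtrl, RPL15 had a siREXO4 peak of fold 12.2 and a siRNaseH1 peak of fold 9.6, both near a start. Both RPL15 peaks also overlapped the neighbour NKIRAS1. RPL29 had start peaks of fold 10.9 in siREXO4 and 14.3 in siRNaseH1. RPL3, which lies by the peptidyl transferase centre, had 3 siREXO4 peaks of fold 4.15, 5.09 and 6.36, and 4 siRNaseH1 peaks that reached 19.2 in the body, from 39315727 to 39316281 on chromosome 22. The strongest RPL3 peak was at its start in siREXO4 and in its body in siRNaseH1. RPL6 had a siREXO4 peak of fold 14.3 and a siRNaseH1 peak of fold 10.5 over the 5′ boundary of its span, which also overlapped PTPN11, the gene next to it.

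Of the genes detected in 1 knockdown list, RPLP1, one of the stalk proteins, had a siRNaseH1 peak of fold 12.6 inside the gene, and RPL10A 2 of fold 5.71 and 9.02 past its end. The RPL10A peak of fold 9.02 had its summit beyond the 2 kb flank and also overlapped the neighbour TEAD3. RPL10, a protein that joins the subunit late in its maturation, had a siREXO4 peak of fold 4.98 near an annotated start. RPL7 had a single siRNaseH1 peak of fold 2.97, at percentile 1.58 of the list. RPL14, RPL28 and RPL34 had siCtrl peaks and no siREXO4 peak. RPL14 had 7 siRNaseH1 and 2 siCtrl peaks, RPL34 6 and 2, and RPL28 5 and 1. The siRNaseH1 folds reached 8.93 in RPL14, 12.1 in RPL34 and 8.39 in RPL28, at percentiles 88.8, 94.2 and 86.8 of that list. The siCtrl folds reached 5.06, 3.73 and 4.16 in the same order, at percentiles 60.1, 8.41 and 21.3 of the siCtrl list.

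A further comparison asked where the knockdown peaks stood relative to siCtrl. Gained peaks are knockdown peaks that share no base with a siCtrl peak. Gained peaks lay at 27 RPL genes in siREXO4, against 31.3% of all and 22.9% of the shorter protein-coding genes, and at 42 RPL genes in siRNaseH1, against 37.6% and 26.6%. At 26 RPL genes a siREXO4 gained peak overlapped a siRNaseH1 gained peak, against 20.8% and 17.0%. These are counts of genes, and a gene with more peaks has more chances to hold a gained one. Counted by peak, 38.3% of siREXO4 and 22.3% of siRNaseH1 peaks at RPL genes overlapped a siCtrl peak. At all protein-coding genes 13.0% and 8.5% did, so a smaller share of the knockdown peaks was gained at RPL genes. With each list cut to its 4458 peaks of lowest p-value, gained peaks lay at 15 RPL genes in siREXO4 (33.3%, against 15.6% of all protein-coding genes), at 29 in siRNaseH1 (64.4%, against 14.2%) and in both knockdowns at 13 (28.9%, against 8.98%). The comparisons of both knockdowns share the siCtrl list, so a gap in that list counts in both.

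Most siCtrl peaks at RPL genes were overlapped by a peak of each knockdown. Of the 31 siCtrl peaks, 23 were overlapped by a siREXO4 peak (74.2%) and 31 by a siRNaseH1 peak (100%), against 44.3% and 53.8% of the siCtrl peaks at all protein-coding genes. At protein-coding genes no longer than RPL31 these shares were 70.9% and 80.6%, so the siREXO4 share at RPL genes was close to theirs. The 8 without a siREXO4 peak were at RPL4, RPL14, RPL28, RPL30, RPL34 and RPL37. Among peaks with a fold of at least 5, 17 siCtrl peaks were left at RPL genes, of which 9 were overlapped by a siREXO4 peak (52.9%) and 17 by a siRNaseH1 peak (100%), against 46.1% and 57.2% of such siCtrl peaks at all protein-coding genes. At the shorter protein-coding genes they were 68.6% and 84.8%, so here the siREXO4 share at RPL genes lay below theirs. These shares have no replicate error and were not tested.

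Most siREXO4 peaks at RPL genes lay where the siRNaseH1 list also had one. Of the 60 siREXO4 peaks, 56 overlapped a siRNaseH1 peak (93.3%, against 60.1% at all protein-coding genes). From the other side, 55 of the 130 siRNaseH1 peaks overlapped a siREXO4 peak (42.3%, against 32.4%). Among gained peaks, 32 of 37 in siREXO4 were gained in both (86.5%, against 48.9% of the whole list) and 33 of 101 in siRNaseH1 (32.7%, against 28.0%).

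The next comparison asked where along the gene the peaks lay, in the 38 genes with an annotated start. A peak covered part of the first 500 bases of 21 genes in siREXO4 (55.3%), 21 in siRNaseH1 (55.3%) and 8 in siCtrl (21.1%), against 18.8%, 19.3% and 2.37% of all protein-coding genes with an annotated start. The shares over the shorter protein-coding genes were 17.8%, 17.2% and 2.88%. The 8 genes with a start peak in each list were RPL4, RPL18, RPL19, RPL26, RPL31, RPL36A, RPL38 and RPL41. A further 12 had one in both knockdowns and not in siCtrl, namely RPL3, RPL11, RPL13, RPL13A, RPL15, RPL17, RPL22, RPL29, RPL35A, RPL36, RPL39 and RPLP2. RPL10 had one in siREXO4 alone, RPL7A in siRNaseH1 alone, and 16 genes had none.

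Summits within the first 500 bases numbered 19 in siREXO4, 18 in siRNaseH1 and 8 in siCtrl, and their median distances from the start were 210, 215 and 242.5 bp. The 500-bp window limits these distances. Of the peaks over the first 500 bases, 5 had their summits outside it, at -1 bp in RPL3 and -75 bp in RPL10 in siREXO4, and at -462 bp in RPL7A, 675 bp in RPL17 and 636 bp in RPLP2 in siRNaseH1, where negative distances lie before the start. DNA was sonicated before the IP, per the labels' protocols, so the position of a hybrid is known no better than the fragment length. At the best-covered position a peak lay over 52.6% of RPL genes in siREXO4, 52.6% in siRNaseH1 and 21.1% in siCtrl, against 14.5%, 14.3% and 2.05% of the shorter protein-coding genes.

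**Figure D4:**
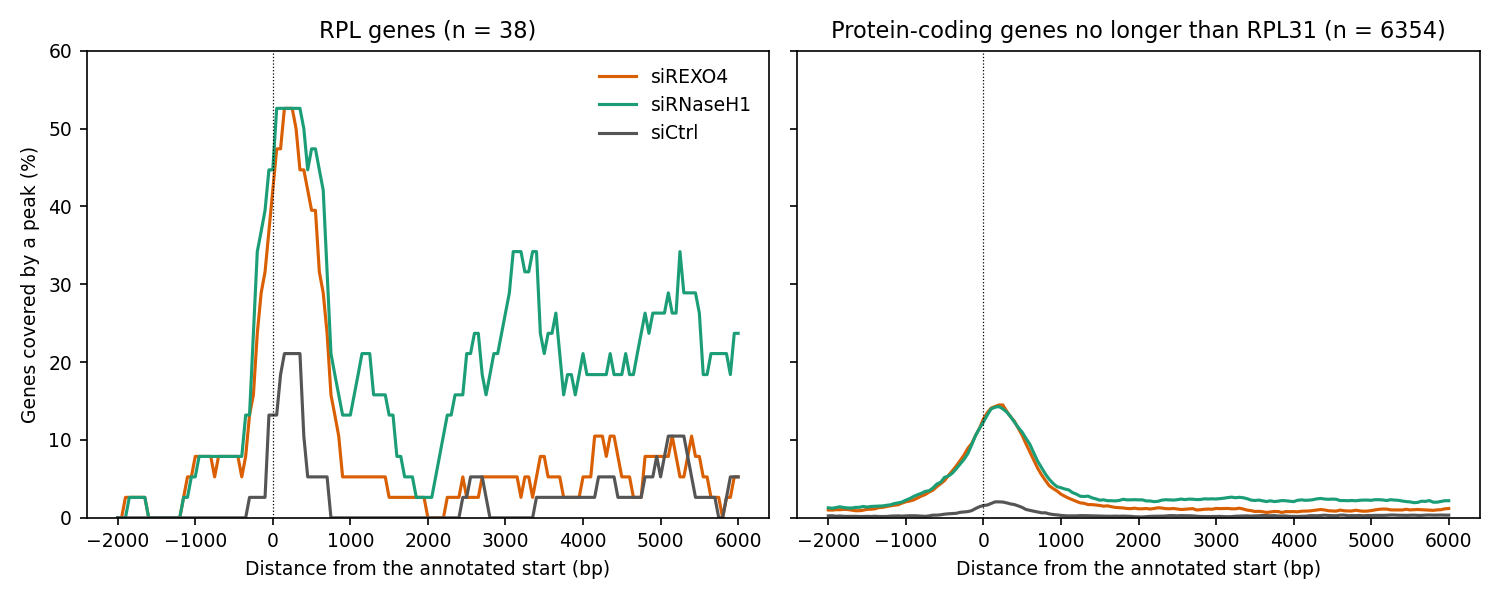
Share of genes (%, vertical axis) covered by a peak at each distance from the annotated start (bp), for 38 RPL genes and 6354 protein-coding genes no longer than RPL31, with 1 line per list. Where a gene has several annotated starts the outermost was taken, and positions past the gene end are included. RPL genes reach 52.6% in siREXO4 and siRNaseH1 and 21.1% in siCtrl just after the start, and between 2500 and 6000 bp the siRNaseH1 line runs between 15.8% and 34.2%.

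Away from the start the lists parted. Between 2500 and 6000 bp a siRNaseH1 peak lay over 15.8% to 34.2% of RPL genes, against 0.0% to 10.5% for siREXO4 and 0.0% to 10.5% for siCtrl. Over the shorter protein-coding genes the share stayed between 0.692% and 1.24% for siREXO4, 1.95% and 2.66% for siRNaseH1, and 0.142% and 0.362% for siCtrl. The median RPL span is 5057 bp, so part of this window lies past the end of many RPL genes. Of the summits at RPL genes, 25 of 52 in siREXO4 (48.1%), 77 of 110 in siRNaseH1 (70.0%) and 17 of 25 in siCtrl (68.0%) lay over 2000 bp downstream of the nearest start. Over the shorter protein-coding genes these shares were 35.6%, 53.3% and 48.7%.

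Such downstream summits were found in 16 of the 38 RPL genes in siREXO4 (42.1%), 29 in siRNaseH1 (76.3%) and 12 in siCtrl (31.6%), against 10.5%, 17.8% and 3.84% of the 6354 shorter protein-coding genes with an annotated start. RPL14, RPL28 and RPL34 had no start peak in any list and 7, 5 and 6 siRNaseH1 peaks downstream, and RPL24 had 5. The RPL24 peaks all overlapped LOC124906262 too. Summits past the gene end made up 9 of 52 in siREXO4 (17.3%), 32 of 110 in siRNaseH1 (29.1%) and 6 of 25 in siCtrl (24.0%), against 16.0%, 20.1% and 19.0% at the shorter protein-coding genes. Among peaks with a fold of at least 5 the downstream summits were 13 of 35 at RPL genes in siREXO4 (37.1%), 55 of 84 in siRNaseH1 (65.5%) and 6 of 13 in siCtrl (46.2%), against 27.2%, 49.6% and 40.2% at the shorter protein-coding genes. With lists of equal length they were 8 of 30 in siREXO4 (26.7%), 32 of 58 in siRNaseH1 (55.2%) and 17 of 25 in siCtrl (68.0%), against 24.2%, 40.4% and 48.7%.

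The start peaks were the stronger ones. Their median percentile was 84.7 in siREXO4, 95.3 in siRNaseH1 and 88.5 in siCtrl, against 56.0, 67.8 and 41.6 for the downstream peaks. Where a gene had a summit in the first 500 bases and at least 1 further peak, the start peak was the strongest in 10 of 11 genes in siREXO4, 13 of 14 in siRNaseH1 and 4 of 4 in siCtrl. Start peaks were also wider, with medians of 826 bp in siREXO4, 922 bp in siRNaseH1 and 457.5 bp in siCtrl, against 310, 539 and 338 bp downstream. Of the start peaks, 11 of 19 in siREXO4 and 10 of 18 in siRNaseH1 were gained, and of the downstream peaks 14 of 25 and 61 of 77. Over the whole lists only 14.5% of siREXO4 and 9.75% of siRNaseH1 peaks overlapped a siCtrl peak. All 4 groups of RPL peaks thus held a smaller share of gained peaks than their list.

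**Figure D5:**
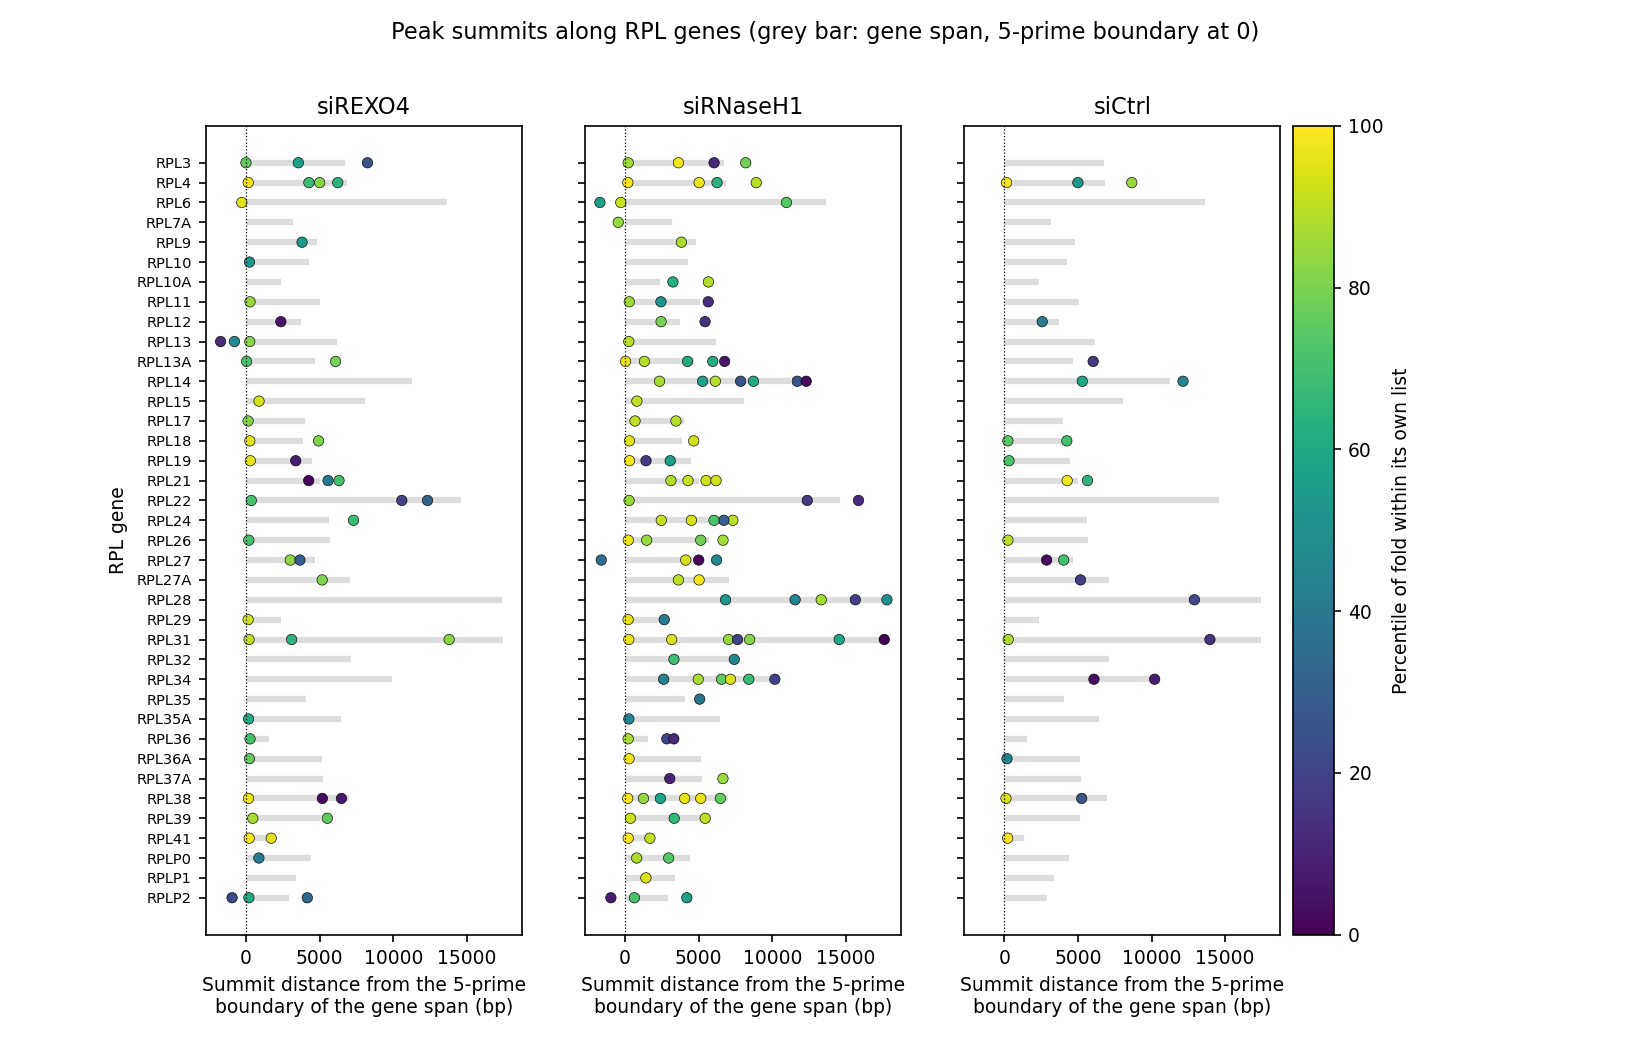
Summits of all peaks in the 38 RPL genes with an annotated start (rows), placed by distance from the 5′ boundary of the span (bp, horizontal axis), with 1 panel per list, colour giving the percentile within the own list and a grey bar the gene span. Within 500 bp after a start lie 19 summits in siREXO4, 18 in siRNaseH1 and 8 in siCtrl, and the siRNaseH1 panel has 77 summits over 2000 bp downstream of an annotated start, against 25 in siREXO4 and 17 in siCtrl.

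By the role of the protein, the genes around the peptidyl transferase centre and core (RPL3, RPL4, RPL8 and RPL10) had a peak in 4 of 4 cases in siREXO4, 3 in siRNaseH1 and 1 in siCtrl. Of the tunnel-exit genes (RPL17, RPL19, RPL22, RPL23A, RPL26, RPL31, RPL35 and RPL39), 7 of 8 had one in siREXO4, 8 in siRNaseH1 and 4 in siCtrl. The stalk and its base (RPLP0, RPLP1, RPLP2 and RPL12) had 3, 4 and 1 of 4. RPL5 and RPL11, which with 5S rRNA form the particle that restrains MDM2 when ribosome assembly fails, both had a peak in both knockdowns, and RPL5 in siCtrl. Of the other 27 genes, 19 had a peak in siREXO4, 27 in siRNaseH1 and 14 in siCtrl. Over all 45 RPL genes the shares with a peak were 77.8% in siREXO4, 97.8% in siRNaseH1 and 46.7% in siCtrl. No difference between these sets was tested.

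Mutations in 9 of the genes cause Diamond-Blackfan anaemia, a failure of red cell production. RPL5, RPL11, RPL15, RPL18, RPL26, RPL27, RPL31, RPL35 and RPL35A had a peak in 8 cases in siREXO4, 9 in siRNaseH1 and 5 in siCtrl. Of all 45 RPL genes 35, 44 and 21 had one (77.8%, 97.8% and 46.7%), and of all protein-coding genes 33.7%, 39.2% and 12.0%. A difference between the 9 genes and the other RPL genes was not tested. Genes that hold a snoRNA in an intron or elsewhere in the span had a peak in 16 of 19 cases in siREXO4, 18 in siRNaseH1 and 11 in siCtrl, against 19, 26 and 10 of the 26 genes without one. The snoRNA genes themselves, 40 in all, were overlapped by 2 siREXO4, 7 siRNaseH1 and 0 siCtrl peaks. Peak bases came to 7.97%, 20.0% and 3.04% of the RPL spans and flanks in the same order of lists. Whether peaks favoured or avoided the snoRNAs was not tested. The host genes were RPL17 (SNORD58B) and RPL23A (SNORD42B) in siREXO4. In siRNaseH1 they were those 2 genes, with a further snoRNA each, and RPL3, RPL13A and RPL21.

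Counted in the same way, the 32 small-subunit ribosomal protein genes listed had a peak in 28 cases in siREXO4 (87.5%), 28 in siRNaseH1 (87.5%) and 17 in siCtrl (53.1%). The RPL shares were 77.8%, 97.8% and 46.7%, and those of all protein-coding genes 33.7%, 39.2% and 12.0%. Over the first 500 bases a peak lay at 64.0%, 64.0% and 32.0% of the 25 small-subunit genes with an annotated start. At RPL genes these shares were 55.3%, 55.3% and 21.1%. Of 39 genes for 60S assembly factors, which build the subunit without staying in it, 17 had a peak in siREXO4 (43.6%), 33 in siRNaseH1 (84.6%) and 9 in siCtrl (23.1%). NOP53, a factor in the processing of large-subunit rRNA, had the most, with 6 siREXO4, 9 siRNaseH1 and 0 siCtrl peaks. EIF6, which keeps the new subunit from joining early, had 2 siREXO4, 2 siRNaseH1 and 0 siCtrl peaks. NMD3, an export adaptor, had 0 siREXO4, 2 siRNaseH1 and 1 siCtrl peak.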

How the data were processed

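DRIP-seq peak lists of U2OS cells were analysed, 1 per transfection. Per the labels, each list comes from 3 IP libraries that the authors merged. Signals of single libraries were not used here. Tools named in the submitters' processing notes are MACS2 2.1.0.20150731, deepTools 3.5.1, SAMtools 1.17, HISAT2 2.2.1, Trim Galore 0.6.10 and Cufflinks, with the hg38 build. What each tool did, its options and the control of each call were not given in the sources used here. As deposited, the fold enrichment (column 7) is a ratio of the summit to the caller's local background and was used within its own list. The −log10 p of the summit was also used as deposited.

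Gene spans and promoters came from RefSeq tables of GRCh38.p14. Peaks on chromosomes 1 to 22 and X were assigned by an overlap of at least 1 bp with the span or the 2 kb on either side. Fragments at a summit were recovered from the fold, with a pseudocount of 1, and the Poisson p-value. They came out whole, within 0.001 in −log10 p, for 100% of the peaks with −log10 p below 300 (12636 siREXO4, 20874 siRNaseH1 and 4439 siCtrl). Read depth is unknown. Distances refer to the nearest of a gene's annotated starts.

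The genes and lists were chosen with earlier results of these data known. Genes named were the 8 of highest fold per list, those with peaks in all 3 lists, those with the most peaks or covered bases, and the genes targeted by the siRNAs. Promoters were printed for genes with a peak over the promoter window in all 3 lists. Other genes named, and the windows of 500 and 2000 bases, were chosen after their values were seen. Of 40 assembly factors listed, 39 were found by symbol. The list of paralogs holds a gene that is not reported here. Alternatives were no flank, flanks of 1 kb and 5 kb, a fold of at least 5, equal list length, summit position, exclusion of peaks over neighbouring genes and a stricter overlap. The code was tested on simulated data and run in Python 3.11.15 with pandas 2.3.3, NumPy 2.4.6, Matplotlib 3.10.9 and SciPy 1.17.1.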

Additional observations from a re-analysis of the deposited data

How the results depend on the processing

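Of the 80 counts recomputed under the alternatives named above, 73 stayed within 1.5 times the reported count. With a fold of at least 5, siCtrl peaks at RPL genes numbered 17, of which siREXO4 peaks overlapped 9 and siRNaseH1 peaks 17. With each list cut to 4458 peaks, RPL genes held 36 siREXO4 and 67 siRNaseH1 peaks, with gained siREXO4 peaks at 15 genes and peaks gained in both knockdowns at 13. Both alternatives keep fewer peaks by construction. Of the 96 recomputed in all, with those chosen after seeing the data, 11 moved, the further ones being summits over 2000 bp downstream. No paired analysis was possible because the authors merged the IP libraries before peak calling, and for the same reason no library could be left out. Depth and the control of each call, which set how many peaks a list holds, were not tested.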

Other observations

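RPL pseudogenes, most of them intronless copies of RPL mRNAs, were almost free of peaks. Counted over the span without flanks, 2 of 1270 held a siREXO4 peak, 2 a siRNaseH1 peak and 0 a siCtrl peak, against 33, 42 and 19 of the 45 RPL genes. The treatment of reads that map to several copies is not given in the sources used here, and its part in the low count was not tested.

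RPL22L1, a paralog of RPL22, held 1 peak in each list, at percentile 83.4 in siREXO4, 98.4 in siRNaseH1 and 76.4 in siCtrl. RPL10L and RPL39L, paralogs with a role in the testis, held 0 peaks in each list.

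All 6 RPL genes on chromosome 17, RPL19, RPL23, RPL23A, RPL26, RPL27 and RPL38, held a peak in each of the 3 lists, against 18 of the 45 RPL genes (40.0%). Of all protein-coding genes on chromosome 17, 13.7% did so, against 8.59% over the chromosomes analysed. The 6 RPL genes on chromosome 3 (RPL14, RPL15, RPL24, RPL29, RPL32 and RPL35A) all lacked a peak in at least 1 list. These chromosomes were picked after the values were seen, and U2OS copy number was not analysed here.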
